A study of Mus musculus with 24 samples.

Results

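Lipoprotein lipase and the genes through which fat cells take up fatty acids were examined in 2 white fat depots of mice lacking FoxO1 in adipose tissue. The set holds 9 genes, Lpl, Gpihbp1, Lmf1, Angptl4, Cd36, Fabp4, Fabp5, Vldlr and Slc27a1, chosen by symbol from a table of 35275 genes, and all 9 were found and passed the expression filter in every comparison. RNA was sequenced from gonadal fat of knockout mice, gonadal fat of control mice, inguinal fat of knockout mice and inguinal fat of control mice. The knockouts are described as conditional adipose FoxO1 knockout mice and the controls as floxed FoxO1 mice, which carry the gene with its flanking recombination sites intact. The labels do not name the promoter that drove recombination, nor the age, sex or diet of the animals. From the library names, the knockouts were animals M5, M9 and M12 and the controls M6, M7 and M10, 6 in all. Each animal gave 2 libraries per pad, which were averaged, so each group holds 3 animals and the 24 libraries give 12 pads.

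Fat cells cannot take up triglyceride whole. Lipoprotein lipase, made by the adipocyte, is folded in the endoplasmic reticulum with the help of LMF1, secreted, and carried by GPIHBP1 to the inner face of the capillary, where it frees fatty acids from passing lipoproteins. ANGPTL4 inactivates the enzyme and the VLDL receptor holds triglyceride-rich particles near it. CD36 and the transport protein FATP1, encoded by Slc27a1, move the fatty acids into the cell, and the binding proteins FABP4 and FABP5 carry them inside it. FoxO1 is a forkhead transcription factor that leaves the nucleus when insulin acts on the cell.

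The binding protein genes are close relatives, so their letters decide how well reads can be told apart. Fabp4 (chromosome 3, 10204347 to 10208576, minus strand, mm10) and Fabp5 (chromosome 3, 10012548 to 10016607, plus strand) lie on the same chromosome. The 90-base stretch of their coding sequences with the most shared letters is shown first, with the 26 letters that differ in capitals. It covers bases 267 to 356 of the 396-base Fabp4 coding sequence and bases 273 to 362 of the 405-base Fabp5 coding sequence, and 64 letters, 71.1%, are shared.
Fabp4: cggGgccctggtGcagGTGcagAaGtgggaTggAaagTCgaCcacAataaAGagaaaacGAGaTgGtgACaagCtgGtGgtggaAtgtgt
Fabp5: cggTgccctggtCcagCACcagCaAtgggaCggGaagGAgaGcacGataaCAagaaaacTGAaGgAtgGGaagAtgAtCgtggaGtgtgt
The longest run of letters shared exactly by the whole coding sequences is 12 bases. Fabp5 has a far closer relative in Gm6166, annotated as a pseudogene (chromosome 9, 57483913 to 57484585, plus strand, mm10). The first 120 coding bases of Fabp5 and the same stretch of Gm6166 are shown next, with the 1 letter that differs in capitals.
Fabp5: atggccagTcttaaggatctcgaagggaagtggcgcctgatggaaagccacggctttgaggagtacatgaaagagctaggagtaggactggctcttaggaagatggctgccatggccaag
Gm6166: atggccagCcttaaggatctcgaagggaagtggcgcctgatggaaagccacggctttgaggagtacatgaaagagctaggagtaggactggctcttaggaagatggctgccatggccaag
Over the whole coding sequence the pair is 98.3% identical, and 184 of the 356 stretches of 50 bases in it (51.7%) also occur in Gm6166. Both sequences come from the GENCODE annotation of mm10. The labels name no counting tool, so how a read that matches both was assigned is unknown, and the Fabp5 values below are uncertain to that extent. For the other 8 genes the closest match among mouse transcripts was 75.6% identical or less, and the other pseudogene copies of Fabp5 in the table stood at 1.16 FPKM or less.

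Depth ranged from 14953657 to 25438811 gene-assigned reads per library. The 9 genes are far above the counting limit, with 839 reads for Lmf1 in its lowest pad and 439557 for Fabp4 in its highest. Foxo1 itself stood at 2.49 to 5.69 FPKM in knockout pads and at 7.87 to 19.7 FPKM in control pads. FPKM scales the reads of a gene by its length in kilobases and by the depth of its library. Adipocyte markers were abundant in all 12 pads, with Adipoq at 601 FPKM or more in every pad. Epididymal transcripts, 11 genes summed, reached 6443 FPKM in the gonadal pad of knockout M12, against 444 and 2359 FPKM in those of controls M6 and M10 and 1.43 FPKM or less in the other 3 gonadal pads. Of the inguinal pads, knockouts M5 and M12 and controls M6 and M10 carried lymphocyte transcripts, 11 genes summed, at 252 to 399 FPKM, while knockout M9 and control M7 stood at 7.59 and 8.65 FPKM. Skeletal muscle transcripts, 13 genes summed, lay between 62.6 and 455 FPKM in knockout inguinal pads and between 150.2 and 917 FPKM in control inguinal pads.

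Per kilobase of the length listed in the table, the order in inguinal fat of knockouts was Fabp4, Lpl, Cd36, Slc27a1, Angptl4, Fabp5, Gpihbp1, Vldlr and Lmf1, with mean values of 16640 FPKM for Fabp4 and 6.95 FPKM for Lmf1. Fabp4, Lpl and Cd36 led in that order in all 4 groups, with no overlap between neighbours over the 3 animals per listed length. Slc27a1 and Angptl4 followed, and their pads overlapped in every group but gonadal knockouts. The lower ranks depend on the listed length. Fabp5 is listed with 3238 bases, the length of a transcript with a retained intron, while its longest protein-coding transcript has 987 bases. Lmf1 is listed with 3863 bases against 2003 for its longest protein-coding transcript, and Fabp4 with 637 bases against 896. Counted per kilobase of the longest protein-coding transcript, Fabp5 stood at 169 ± 13 in knockout and 125 ± 35 in control gonadal pads and at 321 ± 26 in knockout and 139 ± 50 in control inguinal pads (SD, n = 3). On that scale it stood directly below Cd36 in 3 groups and below Slc27a1 in inguinal controls, and its pads overlapped those of Slc27a1 in the control groups only. Fold changes of a gene between pads do not depend on its length.

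**Figure D1:**
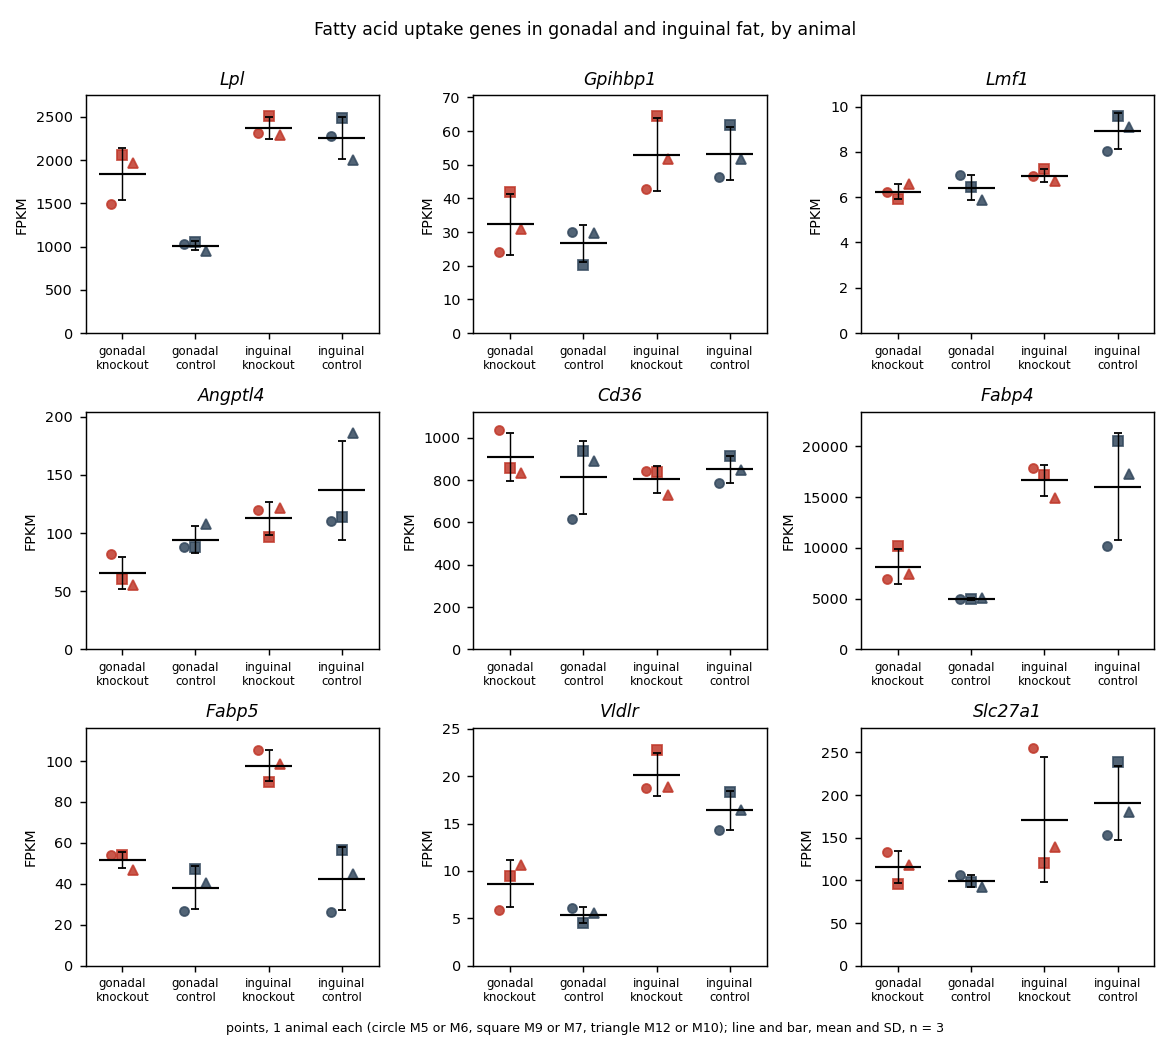
FPKM (y axis, linear from 0) of each of the 9 genes in the 4 groups, with 1 point per animal and the mean and SD over 3 animals. The 3 knockout points for Lpl in gonadal fat, 1496 to 2058 FPKM, lie above the 3 control points, 954 to 1052 FPKM, and the same holds for Fabp5 in inguinal fat.

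In gonadal fat 7 of the 9 genes had a higher and 2 a lower fitted value in knockouts, where 44.2% of all genes were higher. Those with a limma unadjusted p under 0.05 were Lpl, Fabp4 and Vldlr, which were higher, and Angptl4, which was lower. None of the 9 genes passed the adjusted threshold: 0 of 9 were called, as were 0.0% of all 14851 genes tested with limma (Benjamini-Hochberg adjusted p under 0.05). In inguinal fat 0 of 9 were called, against 0.022% of 13621 genes, 3 in number. The knocked-out gene Foxo1 was itself not called in either depot. Its log2 fold change was -1.18 in gonadal fat (SE 0.19, limma adjusted p = 0.407). In inguinal fat that of Foxo1 was -1.86 (SE 0.29, limma adjusted p = 0.129). At an unadjusted p under 0.05 there were 4 of 9 in gonadal fat, against 8.69% of all genes, and 2 of 9 in inguinal fat, against 14.9%. The groups of 3 pads did not overlap for 3 of 9 genes in gonadal fat, against 14.3% of all genes, and for 3 of 9 in inguinal fat, against 22.5%. The median log2 fold change of the 9 genes was 0.26 in gonadal fat, where the median of all genes was -0.02. In inguinal fat it was -0.02, where the median of all genes was -0.10. A test over 3 animals against 3 cannot give an exact permutation p below 0.1 for a single gene, and nothing shows that the 2 libraries of a pad are more than repeats, so each p rests on 3 animals a group. When each library was instead counted as a replicate, limma called 4 of the 9 genes in gonadal fat (Lpl, Angptl4, Fabp4 and Vldlr) and 3 in inguinal fat (Fabp5, Lmf1 and Vldlr), beside 1125 and 2189 genes in all. DESeq2 on the reads summed per animal called 2 in gonadal fat (Lpl and Fabp4, of 313 genes) and 1 in inguinal fat (Fabp5, of 661), while edgeR's quasi-likelihood test called 0 in either.

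**Figure D2:**
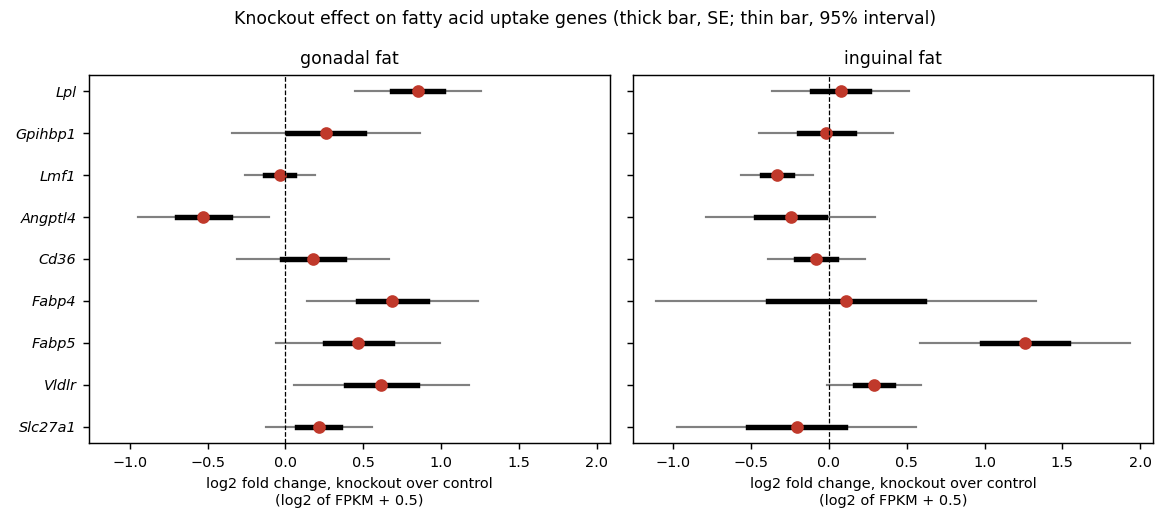
Log2 fold change of knockout over control (x axis, on the log2 of FPKM + 0.5 scale) for each gene, with gonadal fat on the left and inguinal fat on the right. Thick bars are the SE and thin bars the 95% interval from limma over 3 animals a group; the points lie farthest to the right for Lpl in gonadal fat (0.85) and Fabp5 in inguinal fat (1.26).

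Lpl (chromosome 8, 68880491 to 68907448, plus strand, mm10), the lipase itself, stood at 1496, 2058 and 1970 FPKM in gonadal fat of knockouts M5, M9 and M12, against 1030, 1052 and 954 FPKM in that of controls M6, M7 and M10. The knockout and control pads did not overlap, and the knockout mean was 182% of the control mean. In inguinal fat Lpl was 2314, 2517 and 2290 FPKM in the knockouts and 2283, 2490 and 2007 FPKM in the controls, and there the groups overlapped. The log2 fold change was 0.85 in gonadal fat (SE 0.17, 95% interval 0.45 to 1.26, limma adjusted p = 0.421). In inguinal fat the log2 fold change was 0.07 (SE 0.18, 95% interval -0.37 to 0.52, limma adjusted p = 0.901). The exact two-sided permutation p was 0.1 in gonadal fat, the smallest that 3 animals against 3 allow, and 0.4 in inguinal fat. Leaving out 1 animal at a time kept the gonadal value between 0.76 and 0.99.

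The level of an adipocyte transcript in a whole pad moves with the share of adipocyte RNA in it, and fewer cells of a type cannot be told apart from less RNA per cell. The mean log2 level of 11 adipocyte markers lay between 8.23 and 8.87 in knockout and between 8.0 and 8.43 in control gonadal pads, and 9 of the 11 had a higher fitted value in knockouts, where 44.2% of all genes were higher. With that marker level as a covariate the gonadal log2 fold change of Lpl was 0.65, that of Fabp4 0.47 and that of Vldlr 0.25. This covariate was chosen after the data were seen. Summed instead, the 11 adipocyte markers came to 5921 to 8596 FPKM (median 6440) in knockout gonadal pads. In control gonadal pads the sum was 6307 to 9129 FPKM (median 7371), so the summed median was lower in knockouts. With the level of epididymal transcripts as a covariate Lpl was at 0.83 and Vldlr at 0.54. All 12 macrophage markers had lower means in knockout gonadal pads, with summed levels of 6756 to 11847 FPKM against 8816 to 13690 FPKM in controls. Red cell markers, 7 genes, also had lower means in knockouts of both depots, summing to 1615 to 4191 FPKM in knockout and 4237 to 13632 FPKM in control gonadal pads. The part of macrophages and red cells in the Lpl values was not tested.

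Gpihbp1 (chromosome 15, 75596628 to 75599481, plus strand, mm10) encodes the capillary protein that carries the enzyme. In gonadal fat it stood at 24.1, 41.9 and 30.8 FPKM in knockouts M5, M9 and M12 and at 30.1, 20.2 and 29.6 FPKM in controls M6, M7 and M10. The inguinal pads gave 42.8, 64.4 and 51.7 FPKM in knockouts and 46.3, 61.8 and 51.6 FPKM in controls. The groups overlapped in both depots, with log2 fold changes of 0.26 (SE 0.25, 95% interval -0.34 to 0.86) in gonadal and -0.02 (SE 0.18, 95% interval -0.45 to 0.41) in inguinal fat. The gene is made by endothelial cells, and 12 other endothelial markers summed to 203 to 358 FPKM in knockout and 221 to 317 FPKM in control gonadal pads. Knockout M5 was lowest of the knockouts both for Gpihbp1 and for these markers in each depot. Set against the summed endothelial markers of its own pad, Gpihbp1 came to 11.9%, 11.7% and 11.5% in gonadal fat of knockouts M5, M9 and M12 and to 9.47%, 9.12% and 9.56% in that of controls M6, M7 and M10. These shares did not overlap (exact permutation p = 0.1, the smallest possible), but the ratio was chosen after its values were seen. In inguinal fat the shares overlapped, at 15.8% to 19.0% in knockouts and 15.4% to 19.5% in controls.

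Lmf1 (chromosome 17, 25579174 to 25662826, plus strand, mm10), the folding factor, was the lowest of the 9 genes in inguinal fat per listed length. Its gonadal values were 6.23, 5.91 and 6.59 FPKM in knockouts M5, M9 and M12 and 6.97, 6.45 and 5.86 FPKM in controls M6, M7 and M10. In inguinal fat it was 6.93, 7.23 and 6.69 FPKM in knockouts and 8.03, 9.60 and 9.09 FPKM in controls. The inguinal groups did not overlap, with every knockout pad below every control pad, while the gonadal groups did. The log2 fold change was -0.33 in inguinal fat (SE 0.10, limma adjusted p = 0.217) and -0.04 in gonadal fat (SE 0.09, 95% interval -0.26 to 0.19). The inguinal value lies beside a median of -0.10 over all genes, and it was -0.22 after TMM scaling, which brought that median to 0.01.

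Angptl4 (chromosome 17, 33773750 to 33781575, minus strand, mm10), the inhibitor, was the member with a lower mean in knockouts of both depots besides Lmf1. In gonadal fat it stood at 81.6, 60.9 and 55.1 FPKM in knockouts M5, M9 and M12 and at 87.7, 87.6 and 108 FPKM in controls M6, M7 and M10. Its inguinal values were 119, 96.3 and 122 FPKM in knockouts and 111, 114 and 186 FPKM in controls. The gonadal groups did not overlap, though knockout M5 lay close to the lowest controls, and the inguinal groups overlapped with control M10 far above the rest. The log2 fold change was -0.53 in gonadal fat (SE 0.17, 95% interval -0.95 to -0.11, limma adjusted p = 0.499) and -0.25 in inguinal fat (SE 0.22, limma adjusted p = 0.670). The inguinal value rested on control M10, and without that animal it was 0.00 to 2 decimals. With the adipocyte marker level as a covariate the gonadal value was -0.30.

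Set against each other within a pad, enzyme and inhibitor transcripts differed in proportion between the gonadal groups. The ratio of Lpl to Angptl4 FPKM was 18.3, 33.8 and 35.7 in gonadal fat of knockouts M5, M9 and M12, against 11.7, 12 and 8.85 in that of controls M6, M7 and M10. The groups did not overlap and the knockout mean was 2.69 times the control mean, with an exact permutation p of 0.1, the smallest possible. In inguinal fat the ratio was 19.4, 26.1 and 18.8 in knockouts and 20.7, 21.8 and 10.8 in controls, and the groups overlapped. The ratio was chosen after the values of both genes were known, so it adds no independent evidence to theirs.

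Vldlr (chromosome 19, 27216484 to 27254231, plus strand, mm10), the receptor for triglyceride-rich particles, had a higher mean in knockouts of both depots. The gonadal pads gave 5.92, 9.43 and 10.6 FPKM in knockouts M5, M9 and M12 and 6.05, 4.46 and 5.54 FPKM in controls M6, M7 and M10. The inguinal pads gave 18.8, 22.7 and 18.9 FPKM in knockouts and 14.4, 18.4 and 16.4 FPKM in controls. The gonadal groups overlapped through knockout M5 alone, and the inguinal groups did not overlap. The log2 fold changes were 0.62 in gonadal fat (SE 0.23, limma adjusted p = 0.541) and 0.29 in inguinal fat (SE 0.12, limma adjusted p = 0.351). Without knockout M5 the gonadal value was 0.86, the highest of 19 alternatives. With the adipocyte marker level as a covariate it was 0.25, the lowest of them.

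Cd36 (chromosome 5, 17781690 to 17888959, minus strand, mm10), the scavenger receptor that takes up long-chain fatty acids, had group means between 804 and 910.2 FPKM in all 4 groups. In gonadal fat it was 1039, 857 and 834 FPKM in knockouts M5, M9 and M12 and 618, 938 and 888 FPKM in controls M6, M7 and M10. In inguinal fat it was 841, 840.0 and 729.6 FPKM in knockouts and 788, 914 and 849 FPKM in controls. The groups overlapped in both depots. The log2 fold change was 0.18 in gonadal fat (SE 0.20, 95% interval -0.31 to 0.67) and -0.08 in inguinal fat (SE 0.13, 95% interval -0.39 to 0.23).

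Slc27a1 (chromosome 8, 71568927 to 71586708, plus strand, mm10), which encodes the fatty acid transport protein FATP1, stood at 133, 96.0 and 118 FPKM in gonadal fat of knockouts M5, M9 and M12. In that of controls M6, M7 and M10 it was 107, 98.4 and 92.3 FPKM. Its inguinal values were 255, 120.2 and 139 FPKM in knockouts and 153, 238 and 180.2 FPKM in controls, a wide spread within each group. The groups overlapped in both depots, with log2 fold changes of 0.21 (SE 0.14, 95% interval -0.12 to 0.55) in gonadal and -0.21 (SE 0.31, 95% interval -0.98 to 0.56) in inguinal fat.

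Fabp4, the main fatty acid binding protein of adipocytes, was the most abundant of the 9 genes. Its gonadal values were 6887, 10153 and 7423 FPKM in knockouts M5, M9 and M12 and 4934, 4946 and 5082 FPKM in controls M6, M7 and M10. The inguinal pads gave 17875, 17171 and 14873 FPKM in knockouts and 10219, 20516 and 17290 FPKM in controls. The gonadal groups did not overlap and the 3 gonadal controls lay close together, while inguinal control M6 stood below every other inguinal pad. The log2 fold change was 0.69 in gonadal fat (SE 0.22, 95% interval 0.14 to 1.24, limma adjusted p = 0.499) and 0.11 in inguinal fat (SE 0.50, 95% interval -1.11 to 1.33, limma adjusted p = 0.957). The inguinal value was -0.18 without control M6.

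Fabp5, the second binding protein of adipocytes, which other cells such as macrophages and endothelium also make, showed the widest gap between knockout and control in inguinal fat. There it was 105, 89.7 and 98.5 FPKM in knockouts M5, M9 and M12 and 26.1, 56.5 and 44.8 FPKM in controls M6, M7 and M10, so the groups did not overlap and the knockout mean was 230% of the control mean. The gonadal pads gave 54.0, 53.9 and 46.9 FPKM in knockouts and 26.6, 47.3 and 40.6 FPKM in controls, where knockout M12 and control M7 overlapped. The log2 fold change was 1.26 in inguinal fat (SE 0.28, 95% interval 0.59 to 1.93, limma adjusted p = 0.161, exact permutation p = 0.1). In gonadal fat it was 0.47 (SE 0.22, 95% interval -0.06 to 1.0, limma adjusted p = 0.619). Control M6 was lowest in both depots, and without it the values were 0.95 in inguinal and 0.23 in gonadal fat. Macrophage markers, all 12 of them, had lower means in knockout inguinal pads, which summed to 321 to 585 FPKM against 658 to 1413 FPKM in controls. Brown and beige adipocyte markers, 6 genes, summed to 849.6 to 1130.2 FPKM in knockout inguinal pads and to 237, 924 and 863 FPKM in those of controls M6, M7 and M10, so control M6 was low for these as well. The part of macrophages and beige adipocytes in the Fabp5 values was not tested. Adipocyte markers had a mean log2 level of 9.44 to 9.69 in knockout and 9.55 to 9.86 in control inguinal pads, and with that level as a covariate Fabp5 was at 1.46. Summed instead, the adipocyte markers came to 11503 to 15056 FPKM in knockout and 17288 to 21484 FPKM in control inguinal pads. Every knockout sum lay below every control sum. Of the 11 markers, however, 6 had a higher and 5 a lower fitted value in knockouts there, where 29.4% of all genes were higher. Their median log2 fold change was 0.03.

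The near-copy Gm6166, named here after its values were seen, followed Fabp5 in every pad. Its reads made up 25.6% to 27.9% of the reads of the pair in the 12 pads. In inguinal fat it was 176, 165 and 184 FPKM in knockouts M5, M9 and M12 and 44.0, 98 and 81.4 FPKM in controls M6, M7 and M10. Whether Gm6166 is itself transcribed cannot be told apart from reads of Fabp5 placed on it. Summed over both genes and scaled to library depth, the reads (RPM) were 458, 401 and 442 in inguinal fat of knockouts M5, M9 and M12, against 114, 249 and 199 in that of controls M6, M7 and M10. With the reads of Gm6166 added to Fabp5 the log2 fold change was 1.27 in inguinal fat (limma adjusted p = 0.161) and 0.47 in gonadal fat (limma adjusted p = 0.625).

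The level of one binding protein was also set against the other within each pad. Per kilobase of protein-coding transcript, Fabp5 came to 2.72%, 2.41% and 3.06% of Fabp4 in inguinal fat of knockouts M5, M9 and M12, against 1.18%, 1.27% and 1.19% in that of controls M6, M7 and M10. The knockout mean was 2.25 times the control mean, with no overlap (exact permutation p = 0.1, the smallest possible). In gonadal fat the shares overlapped, at 2.45% to 3.62% in knockouts and 2.49% to 4.41% in controls. This ratio, too, was chosen after its values were seen.

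**Figure D3:**
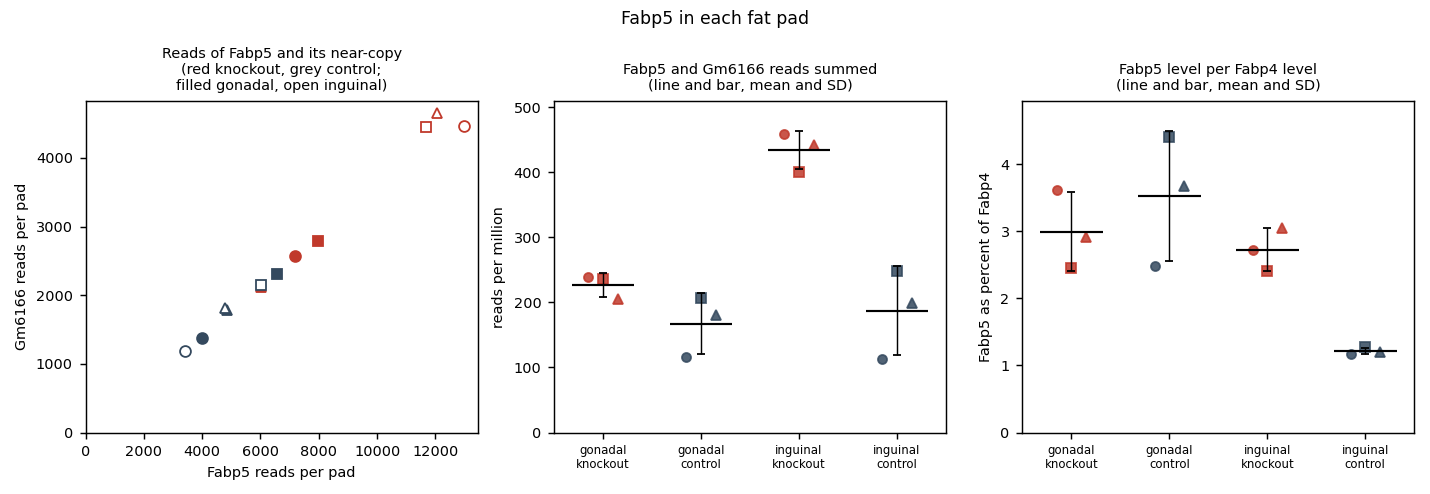
Left, reads of Gm6166 (y axis) against reads of Fabp5 (x axis) in the 12 pads, which lie along a line with 25.6% to 27.9% of the reads of the pair on Gm6166. Middle, summed depth-scaled reads (RPM) by group. Right, Fabp5 as a percentage of Fabp4 by group, where the 3 inguinal controls lie between 1.18% and 1.27% and the 3 inguinal knockouts between 2.41% and 3.06% (points, animals; lines and bars, mean and SD).

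Whether the knockout effect itself differed between the depots was tested in 1 fit over the 12 pads with the animal as a block. None of the 9 genes passed, nor did any of the 14577 genes tested (0.0%), and 2 of 9 had an unadjusted p under 0.05, against 5.94% of all genes. These were Fabp5, with a difference of -0.79 on the log2 scale between the gonadal and the inguinal effect (SE 0.13, limma unadjusted p = 0.00102, adjusted p = 0.650), and Lpl, with 0.78 (SE 0.20, limma unadjusted p = 0.00921, adjusted p = 0.719). The differences of the other 7 genes lay between -0.28 for Angptl4 and 0.58 for Fabp4. Within animals, Lpl was lower in the gonadal than in the inguinal pad by 0.63, 0.29 and 0.22 on the log2 scale in knockouts M5, M9 and M12. In controls M6, M7 and M10 it was lower by 1.15, 1.24 and 1.07, so the ranges of the genotypes did not overlap. For Fabp5 the gonadal minus inguinal differences were -0.96, -0.73 and -1.06 in knockouts and 0.03, -0.26 and -0.14 in controls, which did not overlap either. Such differences did not overlap for 2 of the 9 genes, against 11.9% of all genes.

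**Figure D4:**
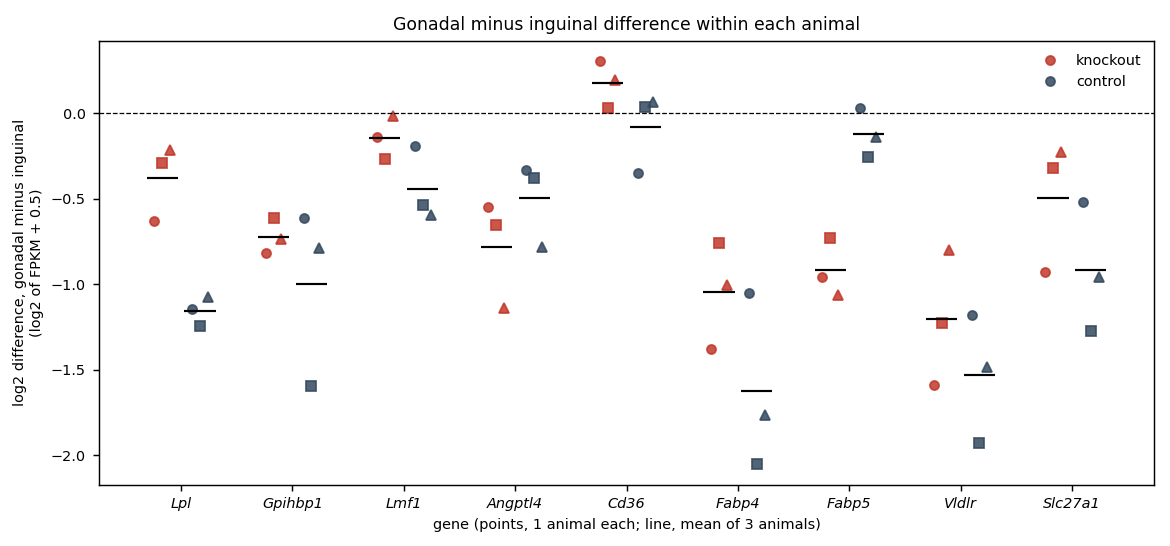
Gonadal minus inguinal difference within each animal (y axis, log2 of FPKM + 0.5) for the 9 genes, knockouts left of controls, with a line at the mean of 3 animals. All control points for Lpl lie below all knockout points, and the order is the opposite for Fabp5.

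Most of the set was lower in gonadal than in inguinal fat. In control mice 7 of the 9 genes fell in gonadal fat and 0 rose, against 48.2% of 14577 genes called in either direction, 17.3% lower and 30.9% higher. Vldlr stood at 5.35 ± 0.81 FPKM in gonadal and 16.4 ± 2.0 FPKM in inguinal fat (SD, n = 3), a log2 difference of -1.53 (SE 0.19, limma adjusted p = 0.00215). Fabp4 had a log2 difference of -1.62 (SE 0.30, limma adjusted p = 0.00707) and Lpl one of -1.15 (SE 0.14, limma adjusted p = 0.00217). Gpihbp1 (-1.0, SE 0.19), Slc27a1 (-0.92, SE 0.19), Angptl4 (-0.50, SE 0.15) and Lmf1 (-0.44, SE 0.10) were the other calls, with limma adjusted p of 0.00754 to 0.0349. The gonadal and inguinal pads of control mice did not overlap for any of these 7, as for 58.9% of all genes. Cd36 (-0.08, SE 0.13, 95% interval -0.41 to 0.24) and Fabp5 (-0.12, SE 0.09, 95% interval -0.35 to 0.11) did not pass. Leaving out 1 control at a time left 6 calls without M6, 4 without M7 and 3 without M10, and the lost calls kept their sign. Over all genes, those called lower numbered 2216, 1589 and 1535 in these fits, where they had been 2518.

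In knockout mice 5 of the 9 genes fell in gonadal fat and 0 rose, against 49.9% of 14577 genes called, 13.3% lower and 36.6% higher. These were Vldlr (-1.20, SE 0.19), Fabp4 (-1.05, SE 0.30), Fabp5 (-0.92, SE 0.09), Angptl4 (-0.78, SE 0.15) and Gpihbp1 (-0.72, SE 0.19), with limma adjusted p of 0.00129 to 0.0299. Fabp5 was at 51.6 ± 4.1 FPKM in gonadal and 97.8 ± 7.8 FPKM in inguinal fat of knockouts (SD, n = 3). Lpl (-0.38, SE 0.14, limma adjusted p = 0.0722), Slc27a1 (-0.49, SE 0.19, limma adjusted p = 0.0739) and Lmf1 (-0.14, SE 0.10) did not pass, and Cd36 was at 0.18 (SE 0.13). The gonadal and inguinal pads of knockouts did not overlap for 7 of the 9 genes, all but Cd36 and Slc27a1, as for 63.4% of all genes. Leaving out 1 knockout at a time left 3 calls, whichever animal was left out: Gpihbp1 and Fabp4 were lost each time. Over all genes, those called lower numbered 1014 without M5, 1301 without M9 and 1683 without M12, where they had been 1932. The depot comparisons move with the scaling. The median difference of all genes was 0.27 in knockouts and 0.19 in controls, and after TMM scaling it was 0.02 and 0.04. With that scaling 8 of the 9 genes were called lower in knockouts, Lpl (-0.65), Slc27a1 (-0.77) and Lmf1 (-0.40) among them, Cd36 turned to -0.10, and the calls over all genes split into 3234 higher and 3338 lower, where they had been 5337 and 1932. In controls the same 7 genes were called, of 3331 higher and 3311 lower in all, where these had been 4503 and 2518. Without the filter on low values Fabp4 was called in neither genotype, and Angptl4 was not called in controls (limma adjusted p = 0.0613), with their differences unchanged. Angptl4 was also not called in controls without the animal as a block (limma adjusted p = 0.0776).

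The depots differed widely in their cells. Adipocyte markers summed to 5921 to 9129 FPKM in gonadal and 11503 to 21484 FPKM in inguinal pads, and in controls 11 of 11 tested adipocyte markers fell in gonadal fat, against 17.3% of all genes, by a median of 1.48 on the log2 scale. Macrophage markers summed to 6756 to 13690 FPKM in gonadal and 321 to 1413 FPKM in inguinal pads, with 11 of 12 called higher in gonadal fat of controls, against 30.9% of all genes. Endothelial markers summed to 203 to 358 FPKM in gonadal and 225 to 375 FPKM in inguinal pads, with 2 of 12 called lower and 0 called higher in gonadal fat of controls. The gonadal difference of Lpl, Vldlr and Fabp4 in controls lay near that of the adipocyte markers, and that of Gpihbp1 beyond the median of -0.12 of the endothelial markers. The part of the cell mixture in these differences was not tested.

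**Figure D5:**
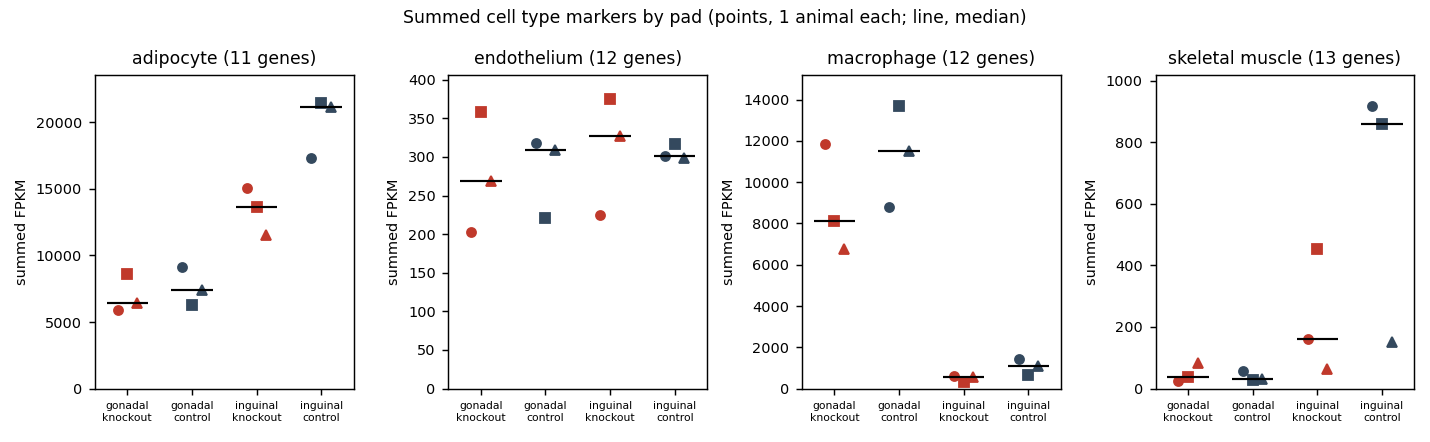
Summed FPKM (y axis, linear from 0) of 4 lists of cell type markers in the 12 pads, 1 point per animal with the group median as a line. Adipocyte markers lie higher and macrophage markers lower in inguinal than in gonadal pads, endothelial markers overlap across all 4 groups, and skeletal muscle markers reach 917 FPKM in an inguinal control pad.

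Other genes of the pathway were taken as 6 lists. In the knockout comparisons 0 genes of any of these lists passed in either depot, as for nearly all genes. Of the 15 genes of lipase folding, transport and control, 13 were tested. Apoc1, which encodes an apolipoprotein that restrains the lipase, averaged 292 FPKM in knockout against 150.3 FPKM in control gonadal pads (log2 fold change 0.94, SE 0.22, limma adjusted p = 0.421). Angptl8, listed as Gm6484, which encodes a protein secreted by fat and liver, averaged 15.7 FPKM in knockout against 6.76 FPKM in control gonadal pads (1.10, SE 0.47, limma adjusted p = 0.592). Pcsk5, a proprotein convertase, averaged 1.40 FPKM in knockout against 4.15 FPKM in control inguinal pads (-1.29, SE 0.18, limma adjusted p = 0.111). Between the depots of control mice 4 of the 13 were called higher and 3 lower in gonadal fat, shares near those of all genes (30.9% higher and 17.3% lower). Sdc1, a heparan sulfate proteoglycan that can bind lipoproteins and is known from plasma cells and epithelia too, stood at 81.8 FPKM in gonadal and 3.99 FPKM in inguinal fat (4.06, SE 0.38). Angptl8 was at 6.76 FPKM in gonadal and 44.3 FPKM in inguinal fat (-2.52, SE 0.21), and Pcsk6, another convertase, at 8.70 FPKM in gonadal and 25.3 FPKM in inguinal fat (-1.49, SE 0.11).

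Among 10 genes of lipoprotein receptors and their control, 9 were tested in gonadal and 7 in inguinal fat. Sorl1, a sorting receptor of the same family as the VLDL receptor, averaged 17.4 FPKM in knockout against 9.63 FPKM in control inguinal pads (0.82, SE 0.13, limma adjusted p = 0.129). Lrp1, a large receptor for lipoprotein remnants, averaged 24.5 FPKM in knockout against 37.5 FPKM in control inguinal pads (-0.61, SE 0.11, limma adjusted p = 0.144). Between the depots of control mice 5 of 9 were called higher and 1 lower in gonadal fat, against 30.9% and 17.3% of all genes, with Lsr (2.59, SE 0.14) and Lrp1 (0.97, SE 0.13) among those called higher.

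Of 13 genes of fatty acid transport proteins, caveolae and CD36 palmitoylation, 11 were tested in each knockout comparison. In inguinal fat 10 of the 11 had lower and 1 higher values in knockouts, where 29.4% of all genes were higher, with a median log2 fold change of -0.24 over the list where that of all genes was -0.10. Cavin2, a caveolar coat protein listed as Sdpr, averaged 144 FPKM in knockout against 184 FPKM in control inguinal pads (-0.36, SE 0.09, limma adjusted p = 0.191). Slc27a3, a relative of Slc27a1, had 1.59 FPKM in knockout and 2.73 FPKM in control inguinal pads (-0.62, SE 0.16, limma adjusted p = 0.191). Between the depots of control mice 2 of 12 were called higher and 4 lower in gonadal fat, against 30.9% and 17.3% of all genes, Cav1 and Cav2, which encode the caveolins, among the lower ones (-0.73, SE 0.12, and -0.89, SE 0.11).

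Acsl1, which encodes the main acyl-CoA synthetase of adipocytes, averaged 160.4 FPKM in knockout against 76.4 FPKM in control gonadal pads (1.04, SE 0.19, limma adjusted p = 0.407). It had the smallest p of the 5 synthetases tested there, and in inguinal fat it was at 435 FPKM in knockouts and 334 FPKM in controls (0.41, SE 0.18, limma adjusted p = 0.379). Between the depots of control mice Acsl1 was lower (-2.10, SE 0.23) and Acsl4, a synthetase with a preference for arachidonic acid, higher in gonadal fat (1.87, SE 0.17), with 2 of 5 synthetases called each way, against 30.9% of all genes higher and 17.3% lower. Of 10 other binding proteins, Dbi, the acyl-CoA binding protein, averaged 1387 FPKM in knockout against 932 FPKM in control gonadal pads (0.56, SE 0.18, limma adjusted p = 0.495). Between the depots of control mice 2 of 6 tested were called higher and 1 lower in gonadal fat, near the shares of all genes (30.9% and 17.3%), with Fabp7 at 22.1 FPKM in gonadal and 0.516 FPKM in inguinal fat (4.41, SE 0.34). Of 11 regulators of these genes, Srebf1, a factor for lipid synthesis, averaged 93.1 FPKM in knockout against 61.9 FPKM in control gonadal pads (0.56, SE 0.19, limma adjusted p = 0.512). Ppara, a nuclear receptor for fatty acids, averaged 10.5 FPKM in knockout against 4.45 FPKM in control inguinal pads (1.25, SE 0.33, limma adjusted p = 0.195). Pparg, the nuclear receptor that drives adipocyte genes, averaged 60.9 FPKM in knockout against 48.7 FPKM in control gonadal pads (0.33, SE 0.17, limma adjusted p = 0.651). Between the depots of control mice 1 of 11 regulators was called higher and 8 were called lower in gonadal fat, against 30.9% and 17.3% of all genes, Pparg (-1.38, SE 0.18) and Cebpa, another adipocyte factor (-1.16, SE 0.12), among the lower ones.

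Likeness to Lpl was measured by Pearson's r of log2(FPKM + 0.5) over the 12 pads among 12150 genes with a mean of at least 1 FPKM. Col5a3, a collagen chain, came first with r = 0.98, followed by Gpt, Arl4a, Hebp1 and Gpt2 with r of 0.96 to 0.97. With the mean of each depot removed, their r was 0.93 to 0.96. Of the other members, Vldlr was the most like Lpl (r = 0.92, and 0.83 with depot means removed), then Fabp4 (0.90 and 0.74) and Gpihbp1 (0.82 and 0.52). Angptl4 had r = 0.17, which became -0.82 with depot means removed, and Cd36 had r = 0.04. The genes most like Gpihbp1 were Meox2 (r = 0.99), mt-Nd6, Tcf15, Tmem205 and mt-Nd4 (0.97 to 0.98). Meox2 and Tcf15 encode transcription factors of capillary endothelium and were also on the list of regulators. That list was chosen with earlier results of these data known. Removing depot means leaves the differences between knockouts and controls in these r values, that of Lpl with Angptl4 included. The pads share animals, depth and cell mixture, so these values are descriptions only.

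The authors' deposited table for gonadal fat lists 1808 of the 35275 genes. Among them are 4 of the 9 members, Lpl with a log2 fold change of 0.84, Fabp4 with 0.70, Vldlr with 0.65 and Angptl4 with -0.46. In the authors' deposited table for inguinal fat, which lists 2220 genes, Fabp5 appears with 1.09 and Vldlr with 0.39. Both hold read counts for each of the 6 libraries of a group, from the same 3 animals as above. The 4 gonadal members are those that limma called when each library was counted as a replicate. The other members are listed in neither of the authors' deposited tables. Promoter windows of 300 bases were at hand from RefSeq (mm10) for Cd36, Slc27a1, Lmf1 and Vldlr, 7 in all. The forkhead core GTAAACA, sought on both strands, occurred in 0 of these 7 windows and in 3.65% of all 32851 windows. No window was at hand for Lpl, Gpihbp1, Angptl4, Fabp4 and Fabp5.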

How the data were processed

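Per the labels' protocols, RNA was extracted with Qiagen RNeasy kits and libraries were made with NEBNext Ultra RNA kits; CASAVA, STAR and mm10 are named in the submitters' processing notes, and neither the counting tool nor its strand setting was found there. The authors deposited FPKM per library for 35275 genes, and for the genes they called changed they deposited read counts, a signal column of scaled group means, log2 fold changes and p-values, per the file headers. Multiplying FPKM by the listed length and by the depth of the library, taken from the deposited counts, gave whole reads for 100% of values (tolerance 0.01), and all 48336 counts in the deposited lists were recovered exactly. Depth was 14953657 to 25438811 reads a library, and no value column was left unmatched. Column names were read as z for knockout, f for floxed control, e for gonadal and s for inguinal fat, with the animal number between. The 2 libraries of a pad (Pearson r 0.991 to 0.996, against 0.897 to 0.985 between animals of a group) were averaged, since nothing shows separate samples.

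Tests used limma 3.58.1 (R 4.3.3) with a trend on log2(FPKM + 0.5), over genes with a mean of at least 0.5 FPKM, two-sided, with Benjamini-Hochberg adjustment over all genes tested and a threshold of 0.05. The knockout was tested within each depot over 3 animals against 3. Depot comparisons and the difference of knockout effects came from 1 fit over 12 pads with the animal as a block. The pairing comes from the animal numbers, and deviations of the pads of one animal from their group means correlated at -0.10 to 0.14. For pads of different animals of a genotype the range was -0.18 to 0.14, so these correlations do not themselves show the pairing. Fold changes on the log2(FPKM + 0.5) scale understate those of low genes. edgeR 4.0.16 and DESeq2 1.42.0 on the rebuilt reads were alternatives, and the limma fits alone were also run on simulated data. Single values used exact permutation tests over all 20 regroupings of 3 animals against 3 (Python 3.11.15). Sequences were compared with blastn 2.17.0.

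The members and lists were chosen with earlier results of these data known. Genes named besides the members were the up to 4 with the smallest p of each list and the 5 most like Lpl and Gpihbp1, with Gm6166 added after its values were seen. Of 168 genes in 17 lists 167 were found, 5 of them by gene ID.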

Additional observations from a re-analysis of the deposited data

How the results depend on the processing

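Of 693 values of single members under alternatives, 639 kept their direction and side of the threshold, 13 came to pass it, 20 no longer passed it and 21 changed sign. Where a value moved, the cause was not tested. With 3 animals a group the knockout comparisons rest on few samples, and the covariates of adipocyte and endothelial marker level and the adding of Gm6166 reads were chosen after seeing the data.

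In gonadal fat, members called for the knockout numbered 4 with each library as a replicate and 2 with DESeq2, where the main count was 0. Genes called there numbered 1125 and 313 under these settings and 0 to 1 when 1 animal was left out. In inguinal fat, members called numbered 3 with each library as a replicate and 1 with DESeq2. Genes called there, 3 in the main test, numbered 2189 with each library as a replicate, 661 with DESeq2, 106 with 12 pads in 4 groups, 6 with the adipocyte covariate, 0 with the skeletal muscle or the endothelial covariate, and 0 to 78 when 1 animal was left out, 78 without control M7.

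Between depots, 3 to 7 members were called in controls and 3 to 5 in knockouts when 1 animal was left out, with 4012 to 6821 and 3980 to 7375 genes in all, and 8 members were called in knockouts after TMM scaling. Without the filter on low values 5 members were called in controls, with Fabp4 and Angptl4 lost, and 4 in knockouts, with Fabp4 lost. Without the replicate block, 6 members and 7155 genes were called in controls, Angptl4 being lost (adjusted p = 0.0776), 5 members and 7370 genes in knockouts, and 0 for the difference of knockout effects, so the pairing changed no other call of a member.

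Signs turned for small values. In gonadal fat Gpihbp1 was -0.17 with the adipocyte covariate, Lmf1 ranged from -0.096 to 0.020 and Cd36 from -0.011 to 0.29 when 1 animal was left out. In inguinal fat, leaving out 1 animal gave -0.0078 to 0.15 for Lpl, -0.17 to 0.13 for Gpihbp1, -0.18 to 0.32 for Fabp4 and -0.53 to 0.0061 for Slc27a1. Gpihbp1 there was 0.10 with TMM, 0.077 with the skeletal muscle covariate, 0.079 with edgeR, 0.11 with DESeq2, 0.057 with the adipocyte and 0.020 with the endothelial covariate. Cd36 there was 0.037 with TMM, 0.0059 with edgeR and 0.032 with DESeq2. The difference of knockout effects for Gpihbp1 ranged from -0.019 to 0.47 when 1 animal was left out. Between depots Cd36 ranged from -0.16 to 0.051 in controls when 1 animal was left out, and was -0.10 in knockouts after TMM scaling.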
